A study of Mus musculus with 11 samples.

Results

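Adipokines are signaling proteins released by fat tissue, and the adiponectin receptors are the membrane proteins through which the most abundant of them acts. 10 genes of this system were followed in the aorta of old mice, with or without sodium nitrate in the drinking water. They were chosen by gene name, with earlier results of these data known. The adipokine genes were Adipoq, Lep, Retn, Cfd, Rarres2, Nampt, Rbp4 and Apln, and the receptor genes Adipor1 and Adipor2. Together they had 11 probes among the 55681 of the array, and all 11 were among the 23633 probes counted as detected.

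Files of 11 arrays were analysed, each from the descending aorta of 1 male C57BL/6 mouse aged 20 months. 5 mice had drunk water with 1 g/L sodium nitrate for 8 weeks (nitrate), and 6 were controls, which the study's methods describe as given an equal concentration of sodium chloride. The labels of the controls name no sodium chloride and call the arrays a re-analysis of earlier samples, so they do not show that both groups were kept together. The methods count 6 mice in each group, and the array of the remaining nitrate mouse was not analysed here. The vessels had been flushed and freed of the fat and connective tissue around them, and total RNA of the whole vessel was labeled with Cy3 for one-color Agilent mouse arrays.

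Fat surrounds the aorta outside its muscular wall, and its adipocytes secrete proteins that reach the vessel. Adiponectin, a chain of collagen-like and globular parts, binds AdipoR1 and AdipoR2, which signal through the kinase AMPK and the nuclear receptor PPAR-alpha, and it is regarded as protective for endothelium. Leptin and some of the other proteins act through receptors of their own, and several of the proteins are also made by cells other than adipocytes.

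Values are log2 signals after quantile normalization of the 11 arrays, and a difference is the nitrate mean minus the control mean. A gene was called where its P value in limma's moderated test was under 0.05 without adjustment, the threshold of the study. Pairs of arrays correlated at 0.982 to 0.995 across probes, and control 1 had the lowest mean correlation, 0.985. Each of the 3 slides held both groups, but column 3 of the slides held all controls and only controls, so column and treatment cannot be told apart. With 11 arrays, their number limits how precise any value is. In a whole vessel, fewer cells of a type and less RNA per cell cannot be told apart.

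3 of the 10 genes were called lower in nitrate mice and 0 higher, and these were Adipoq, Retn and Cfd. All 3 differed by more than 1.2-fold. Among all detected probes, 6.66% were called lower and 7.71% higher, and 4.85% were called lower with a fold change above 1.2. The median difference of the 10 genes was -0.34, against 0.01 over all detected probes, and 9 of the 10 differences were below 0, against 46.2% of all detected probes. Without Apln, which passed the detection filter only through the controls, the median was -0.33 and 8 of 9 differences were below 0. The genes were chosen with earlier results of these data known, so setting them beside these shares is a description and not a test. Benjamini-Hochberg adjustment over all detected probes left 0 of the 10 genes past the same threshold, and the smallest adjusted P value of limma's test was 0.130, for Adipoq. Of all detected probes 0.0127% passed that adjustment. Leaving out single mice moved the count of 3: it was 5 without nitrate 4, nitrate 5, control 5 or control 6, and 2 without nitrate 1 or control 3. The counts without nitrate 4 or nitrate 5 include Apln, which was kept by its level in controls. Over all detected probes the share called lower lay between 4.57% and 7.29% with 1 mouse left out.

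**Figure D1:**
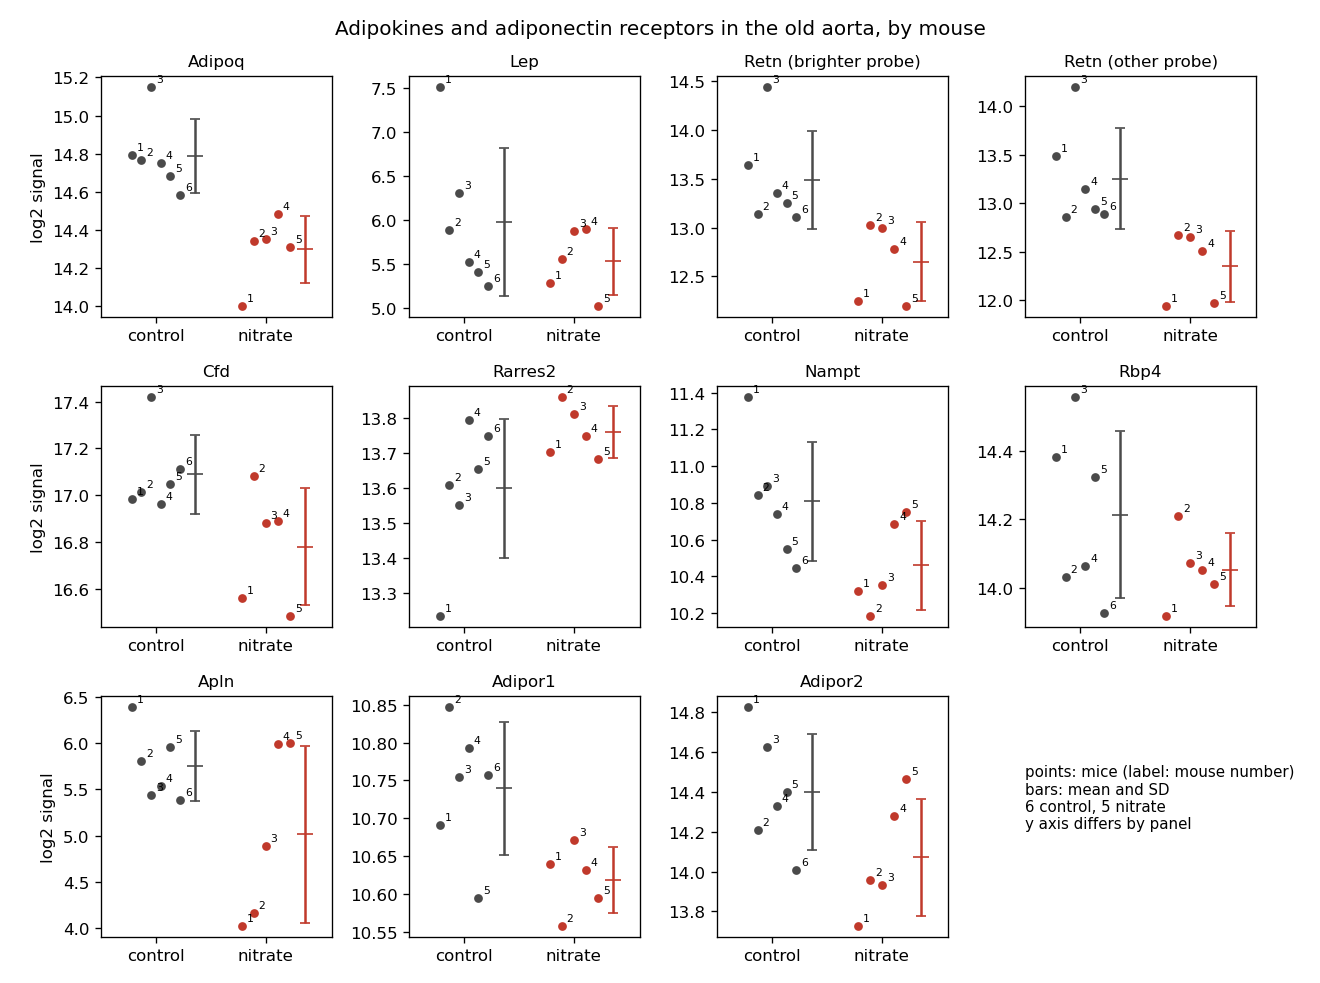
Log2 signal (y axis, a range of its own in each panel) of the 11 probes of the 10 genes in each control and nitrate mouse (x axis); points are mice with their numbers, and bars are the mean and SD. Adipoq and both Retn probes have every nitrate mouse below every control, and in the other panels the groups overlap.

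Adipoq encodes adiponectin, an adipokine made almost only by adipocytes. Its probe lies at chr16:23157576-23157635 of mm9, on the plus strand, and is printed because the clearest difference of the 10 genes rests on these 60 bases.
Adipoq probe: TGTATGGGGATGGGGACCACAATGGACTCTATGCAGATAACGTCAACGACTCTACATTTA
The signal was 14.00, 14.34, 14.35, 14.48 and 14.31 in nitrate mice 1 to 5. In controls it ran from 14.58 to 15.15, with a median of 14.76. Every nitrate mouse lay below every control, which was so for 1.14% of all detected probes, and control 3 was the highest mouse. The means were 14.30 ± 0.18 (SD, n = 5) and 14.79 ± 0.19 (SD, n = 6). Adipoq thus fell by 0.49 (SE 0.11), or 1.41-fold (limma's test, unadjusted P = 0.000752 and adjusted P = 0.130). The exact permutation test, two-sided, gave P = 0.00216, the smallest that the 462 divisions of 11 mice can give. The 95% interval of the difference ran from -0.73 to -0.25.

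Retn encodes resistin, a small cysteine-rich hormone that mouse adipocytes secrete. It had 2 probes, both on chromosome 8, and the one with the higher mean signal represents the gene. That probe lies at chr8:3659757-3659816 and the other at chr8:3657312-3657371, both on the plus strand of mm9. The sequence of the other probe is shown because it repeats the result at a separate place in the same gene.
Retn other probe: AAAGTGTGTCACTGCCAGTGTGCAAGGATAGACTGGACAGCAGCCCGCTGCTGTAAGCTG
At the brighter probe the nitrate signals were 12.24, 13.03, 13.00, 12.78 and 12.20. The controls ran from 13.10 to 14.44, with a median of 13.30. No nitrate mouse reached a control, although mice 2 and 3 came close to the lowest one, and control 3 stood highest as it did for Adipoq. Means of 12.65 ± 0.40 (SD, n = 5) and 13.49 ± 0.50 (SD, n = 6) gave a fall by 0.84 (SE 0.25), or 1.79-fold. limma's test gave it an unadjusted P value of 0.00559 and an adjusted P value of 0.205. The exact permutation test, two-sided, gave P = 0.00433.

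At the other Retn probe the nitrate mice had 11.94, 12.67, 12.65, 12.51 and 11.97, and the controls ran from 12.86 to 14.20, with a median of 13.04. The order of the mice was much the same, with nitrate 1 and 5 lowest and control 3 highest, and the groups again did not overlap. This probe fell by 0.90 (SE 0.25), or 1.87-fold (limma's test, unadjusted P = 0.00321). Both probes read the same RNA samples, so they check the probe and not the mice.

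Cfd encodes adipsin, or complement factor D, the serine protease that starts the alternative complement pathway and is secreted in large amounts by mouse fat. Its probe lies at chr10:79355302-79355361 of mm9. Nitrate mice 1 to 5 had 16.56, 17.08, 16.88, 16.89 and 16.49. The controls ran from 16.96 to 17.42, with a median of 17.03, and control 3 was again the highest. Here the groups overlapped, since nitrate 2 lay above 4 of the 6 controls. The means were 16.78 ± 0.25 (SD, n = 5) and 17.09 ± 0.17 (SD, n = 6), a fall by 0.31 (SE 0.12), or 1.24-fold. The unadjusted P value in limma's test was 0.0248 and the adjusted P value 0.295. The exact permutation test, two-sided, gave P = 0.0260. The call was lost without nitrate 1 (unadjusted P = 0.0675 in limma's test), nitrate 5 (unadjusted P = 0.0702) or control 3 (unadjusted P = 0.0520).

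**Figure D2:**
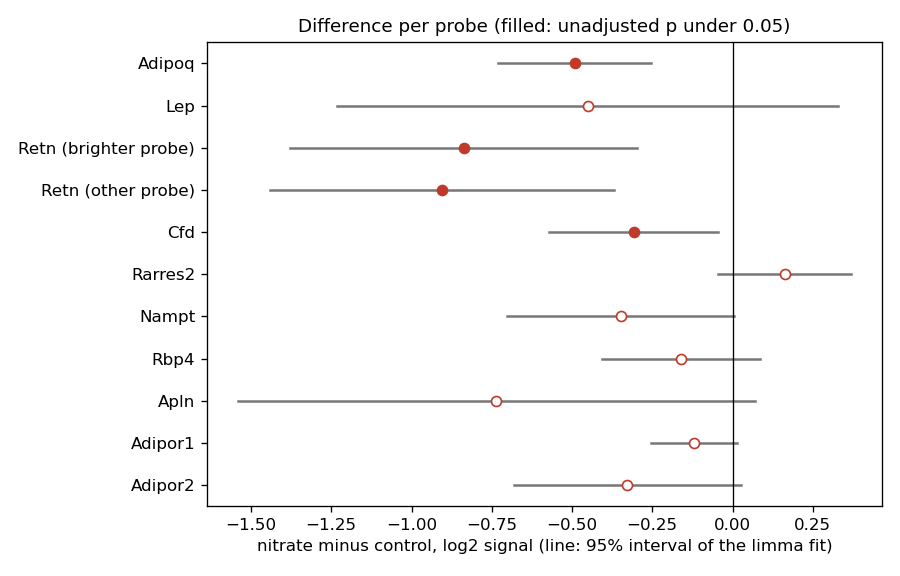
Difference in log2 signal, nitrate minus control (x axis), for each of the 11 probes (y axis), with lines for the 95% interval of the limma fit and filled points for an unadjusted P value under 0.05. The intervals of Adipoq, both Retn probes and Cfd lie below 0, and those of the other genes include it.

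Lep encodes leptin, the hormone by which fat stores signal to the brain. Its probe, at chr6:29023234-29023293 of mm9, was printed 10 times on each array, and those spots were averaged, with an SD between spots of 0.13 to 0.30. Its log2 signal was 5.29, 5.56, 5.88, 5.90 and 5.03 in the nitrate mice. The controls ran from 5.25 to 7.51, with a median of 5.71. Control 1 held the 7.51, and the other 5 controls reached no higher than 6.31, within or near the range of the nitrate mice. The difference of -0.45 (SE 0.36) was within the spread between mice (limma's test, unadjusted P = 0.232; exact permutation test, two-sided, P = 0.335). Its 95% interval, from -1.23 to 0.33, holds falls larger than that of Adipoq as well as rises. It was -0.15 without control 1 and -0.25 under normexp background correction with an offset of 50.

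Rarres2 encodes chemerin, a chemoattractant for immune cells that liver and fat secrete. Its probe spans 195 bases of the genome at chr6:48519775-48519969 of mm9, on the minus strand. In nitrate mice the signals were 13.70, 13.86, 13.81, 13.75 and 13.68. The controls ran from 13.24 to 13.79, with a median of 13.63, and the lowest of them was control 1. Rarres2 was the only one of the 10 genes with a higher nitrate mean, by 0.16 (SE 0.10), and it did not pass limma's test (unadjusted P = 0.116). The nitrate SD was 0.07 and the control SD 0.20. The 95% interval of the difference ran from -0.05 to 0.37, and without control 1 the difference was 0.09.

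Nampt encodes the enzyme that makes nicotinamide mononucleotide for the NAD salvage pathway, and its secreted form is known as visfatin. Its probe lies at chr12:33535475-33535534 of mm9. The nitrate mice had 10.32, 10.19, 10.35, 10.68 and 10.75. The controls ran from 10.45 to 11.38, with a median of 10.79. Nitrate mice 1, 2 and 3 lay below every control, whereas nitrate 4 and 5 lay among the controls, and control 1 was the highest mouse. The difference was -0.35 (SE 0.16), close to the threshold of limma's test (unadjusted P = 0.0523; exact permutation test, two-sided, P = 0.0801). It crossed that threshold with an offset of 16 before log2 (unadjusted P = 0.0465), with detection required on all arrays (unadjusted P = 0.0495), with a trended robust prior variance (unadjusted P = 0.0403) and with slide as a block (unadjusted P = 0.0420). It also did so without nitrate 4, nitrate 5, control 5 or control 6.

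Rbp4 encodes the retinol carrier of plasma, which liver and adipocytes make. Its probe lies at chr19:38191120-38191179 of mm9, on the minus strand. Signals of 13.92, 14.21, 14.07, 14.05 and 14.01 were found in nitrate mice 1 to 5, and the controls ran from 13.93 to 14.56, with a median of 14.19. The 5 nitrate mice all lay within the range of the controls apart from nitrate 1, which lay just under it. The difference of -0.16 (SE 0.11) did not pass limma's test (unadjusted P = 0.182), and its 95% interval ran from -0.41 to 0.09. Without control 3 it was -0.09.

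Apln encodes apelin, a peptide made by endothelial cells and adipocytes that relaxes vessels through the receptor APJ. Its probe lies at chrX:45378593-45378652 of mm9, on the minus strand. It was detected on 6 of 6 control arrays and on 3 of 5 nitrate arrays, so the gene entered the tests through the controls. The nitrate mice had 4.03, 4.16, 4.89, 5.99 and 6.00, of which the 4.03 and 4.16 of mice 1 and 2 were not well above background. The controls ran from 5.38 to 6.39, with a median of 5.67. The nitrate group thus split into 3 mice below every control and 2 mice among the highest of all 11. The difference was -0.74 (SE 0.37; limma's test, unadjusted P = 0.0701; exact permutation test, two-sided, P = 0.136). Under normexp background correction it was -0.26. Without nitrate 4 or nitrate 5 it was -0.98, past the threshold, and without nitrate 1 or nitrate 2 it was -0.49 and -0.52, not past it. Since 2 of the nitrate values were not well above background and the gene was kept by its level in controls, no weight rests on its P values.

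Adipor1 and Adipor2 encode the adiponectin receptors, membrane proteins of the PAQR family. The Adipor1 probe lies at chr1:136328635-136328694 of mm9. Nitrate mice 1 to 5 had 10.64, 10.56, 10.67, 10.63 and 10.59, and the controls ran from 10.59 to 10.85, with a median of 10.76. Adipor1 had the smallest spread of the 10 genes, with an SD of 0.04 in nitrate mice and 0.09 in controls, and control 5 was the one control among the nitrate mice. The difference was -0.12 (SE 0.06). The exact permutation test, two-sided, gave P = 0.0281, whereas limma's test, which draws each variance toward that of other probes, gave an unadjusted P value of 0.0718. Without control 5 the latter was 0.0291.

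The Adipor2 probe lies at chr6:119303222-119303281 of mm9, on the minus strand. The nitrate mice had 13.73, 13.96, 13.93, 14.28 and 14.46, and the controls ran from 14.01 to 14.83, with a median of 14.36. As for Nampt and Apln, nitrate mice 1, 2 and 3 lay below every control, nitrate 4 and 5 lay among them, and control 1 was highest. The difference was -0.33 (SE 0.16; limma's test, unadjusted P = 0.0667; exact permutation test, two-sided, P = 0.0996). With slide as a block it was -0.36 (unadjusted P = 0.0288), and it was also called without nitrate 5 (unadjusted P = 0.0216) or control 6 (unadjusted P = 0.0250).

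Set within slides, Adipoq differed by -0.61, -0.31 and -0.52 on slides 1, 2 and 3. The brighter Retn probe differed by -0.75, -0.23 and -1.36, and Cfd by -0.18, -0.16 and -0.54. All 3 called genes were thus lower on each slide, although slide 2 held only 1 nitrate mouse. Nampt differed by -0.86 on slide 1, -0.24 on slide 2 and -0.0030 on slide 3, and Adipor2 by -0.68, -0.23 and -0.14. Apln differed by 0.30 on slide 3, the slide of nitrate 4 and 5, and it was lower in nitrate mice on slide 1, where neither nitrate array was well above background. Lep changed sign as well, with -1.28, 0.49 and -0.39. Rarres2 was higher on each slide, by 0.36, 0.04 and 0.11. With slide as a block 6 of the 10 genes were called lower, against 7.69% of all detected probes in the same fit. Nampt, Adipor2 and Apln joined the other 3, and without Apln, which was kept by its level in controls, the count was 5. Whether slide itself has a part in these differences was not tested.

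**Figure D3:**
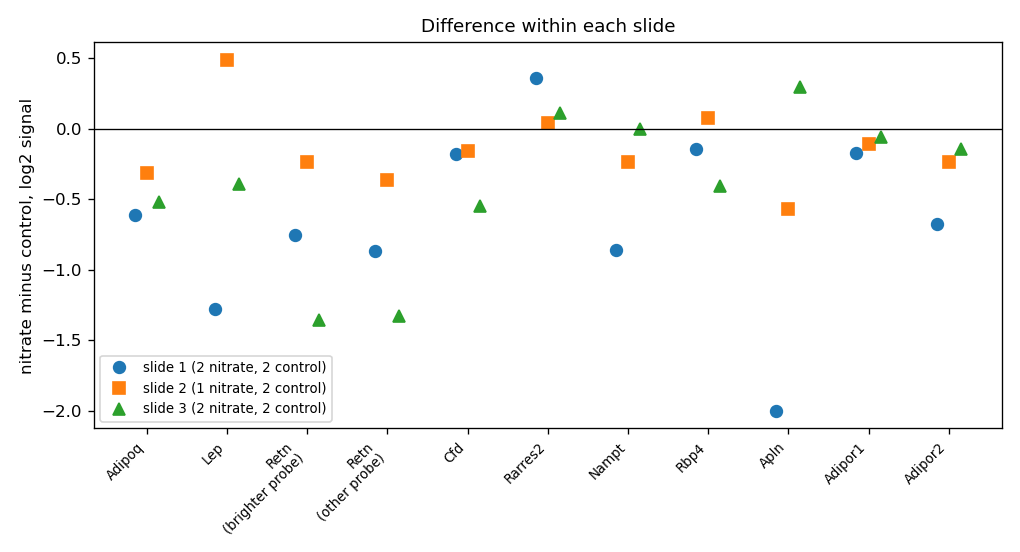
Difference in mean log2 signal, nitrate minus control (y axis), within each of the 3 slides for the 11 probes (x axis); each symbol is 1 slide. Adipoq, both Retn probes and Cfd are below 0 on every slide, and Lep, Rbp4 and Apln lie on both sides of 0 (for Apln on slide 1, neither nitrate array was well above background).

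Since the vessels had been cleaned of fat, the level of adipocyte RNA was measured on the same arrays with 25 adipocyte markers that hold none of the 10 genes. All 25 were detected, with mean log2 signals from 8.05 (Aqp7) to 16.97 (Fabp4), beside 17.89 for the smooth muscle gene Tagln. 14 of the 25 were called lower and 0 higher, against 6.66% and 7.71% of all detected probes. 24 of the 25 differences were below 0, the median was -0.41, and the smallest adjusted P value of limma's test was 0.0938, above the threshold. Cebpa and Pparg, transcription factors of fat cell development, fell by 0.68 (SE 0.12) and 0.57 (SE 0.13). Every nitrate mouse lay below every control for both, which was so for 1.14% of all detected probes. Acvr1c, a receptor of the activin type, fell by 0.57, and Tusc5, which takes part in the traffic of the insulin-regulated glucose transporter, fell by 0.77. Among the genes of the lipid droplet and of fat storage, Lipe, hormone-sensitive lipase, fell by 0.51 (limma's test, unadjusted P = 0.0259). The lipid droplet coat gene Plin1 differed by -0.24 (limma's test, unadjusted P = 0.109) and the fatty acid carrier gene Fabp4 by -0.16 (unadjusted P = 0.262). Without nitrate 1, 8 of the 25 were called lower.

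The mean of these 25 markers, relative to the average of all mice, was -0.46, -0.41, -0.22, -0.03 and -0.05 in nitrate mice 1 to 5. In controls 1 to 6 it was 0.59, 0.08, 0.39, 0.17, 0.09 and -0.12. Control 6 was the one control that lay among the nitrate mice, and the group means differed by -0.43, beside -0.49 for Adipoq, -0.84 for Retn and -0.31 for Cfd. The part of this level in the results on the adipokines was not tested.

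**Figure D4:**
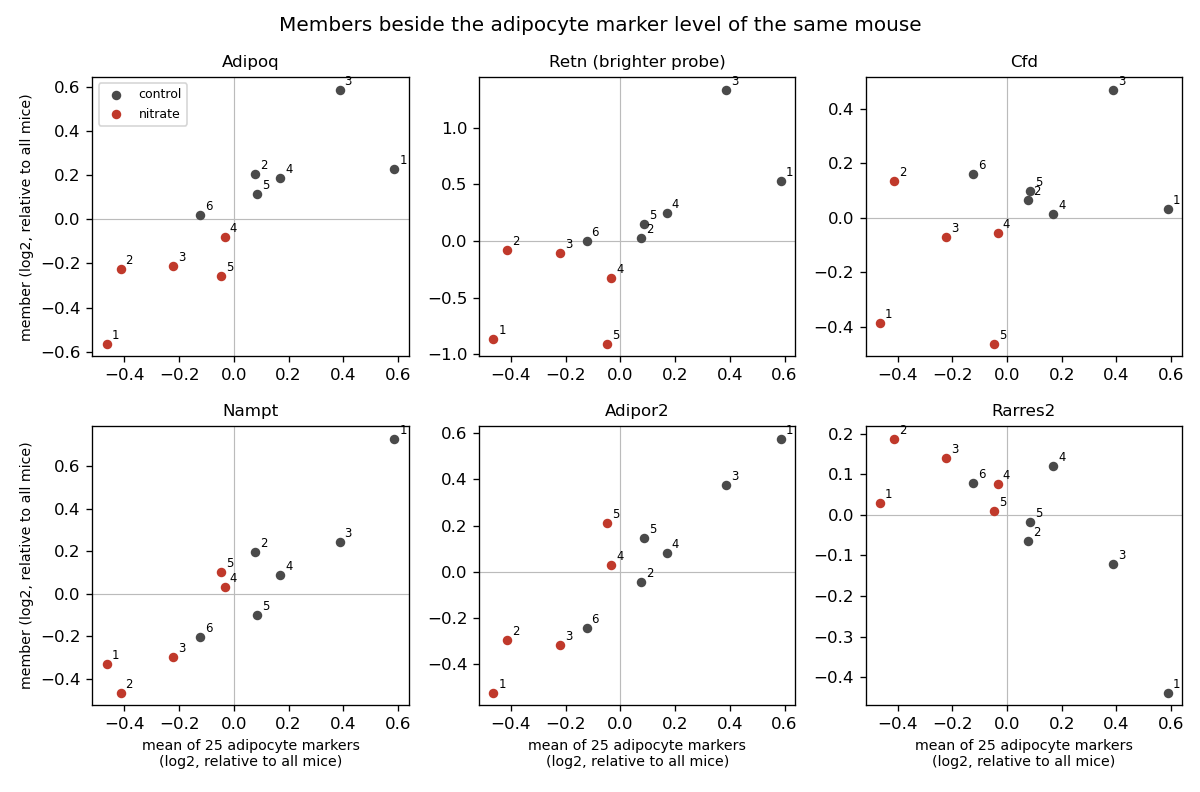
Log2 signal of Adipoq, Retn, Cfd, Nampt, Adipor2 and Rarres2 (y axis) against the mean of 25 adipocyte markers (x axis), both relative to the mean of all mice; points are mice with their numbers. Control 1 has the highest marker level, 0.59, and with it the highest Nampt and Adipor2 and the lowest Rarres2, while Adipoq, Retn and Cfd are highest in control 3.

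Markers of brown fat did not follow the groups in this way. Their mean over 8 genes was -0.19, -0.65, -0.23, 0.33 and 0.50 in nitrate mice 1 to 5. In controls it ran from -0.22 to 0.87, with the highest value in control 1. Its highest values lay in control 1, nitrate 5 and nitrate 4, which were also the highest mice for Apln. For Nampt and Adipor2, too, control 1 was the highest mouse and nitrate 4 and 5 the highest of the nitrate mice, and the part of this level in those results was not tested. Of the 8 genes 1 was called, Cidea, a lipid droplet protein of brown fat, which fell by 0.52 (SE 0.16), while Ucp1, the uncoupling protein that defines brown fat, differed by 0.23 (SE 0.38).

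Of the cells of the vessel wall, smooth muscle was read from 7 markers. 2 were called higher, Lmod1 by 0.31 and Smtn by 0.26, and 0 lower, against 7.71% and 6.66% of all detected probes. The mean of the 7 markers ran from -0.04 to 0.20 in nitrate mice and from -0.33 to 0.02 in controls. Of 8 endothelial markers 1 was called higher, Vwf, which encodes von Willebrand factor, by 0.22, but 4 of the 8 differences were above 0 and 4 below, with a median of -0.03. No leukocyte marker was called among the 7 detected, and Cd79a of B cells was not detected. Cardiac muscle markers, 8 in all, reached a mean of 3.53 in nitrate 4 and 2.93 in control 1, against -1.70 to 0.57 in the other 9 mice. Of these 8 genes 1 was called higher, Ryr2, the calcium release channel of heart muscle, by 0.48 (SE 0.14), and 7 of the 8 differences were above 0. Control 1, the highest mouse for Lep, Nampt, Apln and Adipor2, was thus also among the highest in cardiac and brown fat markers and had the lowest smooth muscle level. The part of these levels in the results on the 10 genes was not tested.

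Other receptors and adaptor proteins of adipokines did not pass the test in either direction. Of 11 such genes 6 were detected, with a median difference of 0.12. They were Cdh13, the T-cadherin that binds adiponectin (0.10), the leptin receptor gene Lepr (0.13), the adaptors Appl1 (0.07) and Appl2 (0.01), Cap1, which resistin has been reported to bind (0.17) and the chemerin-binding Ccrl2 (0.14). Aplnr, the apelin receptor gene, was detected on only 4 nitrate and 2 control arrays and so stayed outside the tests. In a fit over all probes its difference was -0.79 (limma's test, unadjusted P = 0.0157). Since Aplnr was not well above background on most control arrays, no weight rests on that P value. The chemerin receptors also missed the detection rule, with Cmklr1 detected on 4 nitrate and 4 control arrays and Gpr1 on 3 and 2. The retinol-binding protein partners Stra6 and Ttr were detected on 0 arrays of either group.

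The PAQR family, to which both adiponectin receptors belong, had 7 further detected genes with a median difference of 0.0026, on the log2 scale as all differences here. Mmd fell by 0.31 and Mmd2 by 0.54, and Paqr8, a membrane progesterone receptor, rose by 0.48. Among 15 detected genes of AMPK and PPAR-alpha signaling 1 was called, Ppara itself, the nuclear receptor of fatty acid oxidation, which fell by 0.45 (SE 0.13; limma's test, unadjusted P = 0.00410). The median of those 15 was -0.08, and none of the detected AMPK subunits was called.

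Downstream of the leptin receptor, 8 genes were detected. Jak2, its kinase, rose by 0.24 (limma's test, unadjusted P = 0.00426) with every nitrate mouse above every control, as for 380 of the 23633 detected probes. Socs3, the feedback inhibitor that leptin induces, fell by 0.35 (limma's test, unadjusted P = 0.0162). In NAD metabolism, to which Nampt belongs, 3 of 12 detected genes were called, 2 lower and 1 higher. Over all detected probes 6.66% were called lower and 7.71% higher. Nadk, the NAD kinase, fell by 0.34, Parp1, which consumes NAD at DNA damage, fell by 0.20, and Nt5e, the ecto-5-prime-nucleotidase CD73, rose by 0.42. Among the detected genes of retinoid binding, Rxra, the partner of retinoid and fatty acid receptors, fell by 0.34.

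Of 20 other secreted products of fat 12 were detected, with a median difference of -0.07. Grem1, a secreted antagonist of bone morphogenetic proteins, rose by 0.85 (SE 0.19; limma's test, unadjusted P = 0.000766), with every nitrate mouse above every control, as for 380 of the 23633 detected probes. Angptl4, an inhibitor of lipoprotein lipase, fell by 0.53 (limma's test, unadjusted P = 0.0495). Retnla, a close relative of resistin, differed by -0.01 (SE 0.15). The C1q and C1q/TNF relatives of adiponectin, 11 detected, had a median of 0.04. C1qtnf9, a circulating relative of adiponectin made by fat, fell by 0.70 (SE 0.23), C1qtnf7 rose by 0.24 and C1qtnf2 by 0.27. No gene of these lists passed the threshold after adjustment over all detected probes. Their counts of called genes stand beside 6.66% called lower and 7.71% called higher among all detected probes.

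**Figure D5:**
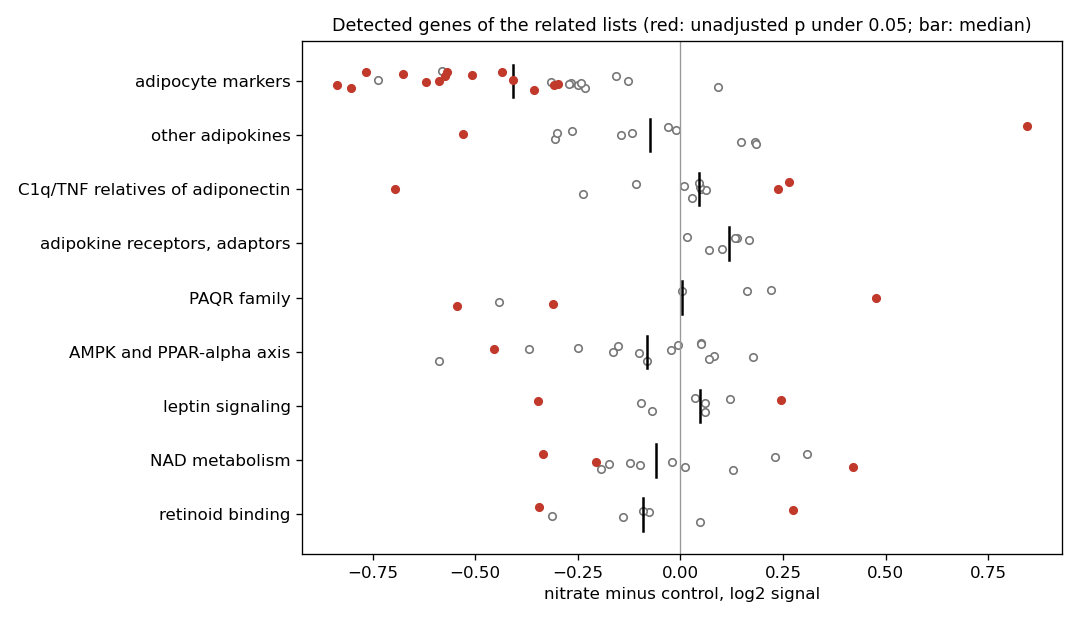
Difference in log2 signal, nitrate minus control (x axis), of the detected genes of 9 lists (y axis); each point is a gene, filled where its unadjusted P value was under 0.05, and the bar is the list's median. The adipocyte markers have a median of -0.41, and the medians of the other lists lie between -0.09 and 0.12.

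By Pearson correlation of log2 signal over the 11 arrays, the genes most like Adipoq among 12206 were Pon3 (r = 0.975), Vnn3 (r = 0.967), Cd2 (r = 0.959), Pxmp2 (r = 0.954) and Grina (r = 0.952). For Nampt they were Sdsl (r = 0.982), Fdx1 (r = 0.979), Tufm (r = 0.979), Phb (r = 0.978) and Chchd3 (r = 0.977). Fdx1, Tufm, Phb and Chchd3 encode proteins of mitochondria. The 11 arrays are the same in every one of these correlations and include both groups.

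The stretches before the starts of the called genes and of Lep are shown with motifs of general promoters and of the C/EBP factors, which are known to act on fat genes. The 100 bases before each start come from RefSeq on GRCm38.p6. Windows of all the genes but Rarres2 were searched here, and capitals mark the letters CCAAT or TTGCNNAA on either strand. They lie at chr16:23146436-23146535, chr8:3655670-3655769, chr10:79890753-79890852 and chr6:29060121-29060220, all on the plus strand.
Adipoq upstream: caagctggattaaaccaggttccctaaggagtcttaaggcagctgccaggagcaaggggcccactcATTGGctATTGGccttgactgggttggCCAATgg
Retn upstream: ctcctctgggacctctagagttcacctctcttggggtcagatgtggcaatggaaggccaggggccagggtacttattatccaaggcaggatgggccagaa
Cfd upstream: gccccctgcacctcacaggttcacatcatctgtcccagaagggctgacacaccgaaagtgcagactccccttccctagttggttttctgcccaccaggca
Lep upstream: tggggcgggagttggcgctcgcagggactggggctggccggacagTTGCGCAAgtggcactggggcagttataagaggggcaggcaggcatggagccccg
In windows of 250 bases upstream, searched on both strands, CCAAT was found 3 times in Adipoq, at 34, 27 and 7 bases before the start, and once each in Adipor1 and Rbp4. Of all 32851 windows 33.85% held CCAAT at least once and 2.791% held 3 or more. TTGCNNAA, a common form of the C/EBP site, was found in Lep at 55 bases before the start and in Rbp4 at 128, and in 9.56% of all windows. CACGTG was in none of the 9 windows and in 6.02% of all, and TATAAA was in that of Rbp4 and in 12.37% of all. The Retn and Cfd windows held none of these letters. A match describes the letters of a window and no binding was measured.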

How the data were processed

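Aortic RNA of 5 nitrate and 6 control mice was hybridized to one-color arrays, 1 mouse an array. For each array the authors deposited spot intensities and quality flags made with Feature Extraction 10.7.1.1, which subtracts the background, with probe positions in mm9. The authors also deposited a table of log2 values, quantile normalized with the median over the arrays taken as 0. Set beside values computed from the intensities, these correlated at 0.99993 to 0.99999.

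Processed signals under 1 were set to 1 before log2. Control spots and those marked as outliers (at most 186 of 59305 an array) were dropped, repeated spots were averaged, and quantile normalization followed. No spot was saturated, and the 75th percentile of the signal ran from 213 to 289. A probe counted as detected on an array with the flags for a found spot and for a signal well above background both set, and probes detected on 5 or more arrays of a group were tested with lmFit and eBayes of limma 3.58.1 in R 4.3.3, with Benjamini-Hochberg adjustment over all of them. Single genes also had two-sided exact permutation tests. A fold change limit of 1.2 follows the study's methods. Where a gene had several detected probes, the one of highest mean signal stood for it.

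Named were every probe of the 10 genes, the called genes of each list (at most the 4 with the smallest P value), defining markers, and the 5 genes most like Adipoq and Nampt. 1 called gene of these lists is not reported here. Other list genes were named for their role after their values were seen. The genes and lists were chosen with earlier results of these data known. Gene names are those of the files. Alternatives covered normalization, the deposited log2 table, normexp background correction with an offset of 50, an offset of 16, detection rules, outlier spots kept, the prior variance, slide and replicate number as blocks, the choice of probe, and each array left out. For adipocyte markers, leaving out arrays and slide as a block were chosen after seeing the data.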

Additional observations from a re-analysis of the deposited data

Results flagged for a closer look

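Some mice stood apart from the rest of their group by Dixon's ratio, the gap to the nearest mouse over the range of the group. Control 3 was high for Adipoq (0.628) and for Cfd (0.678). Control 1 was high in the mean of the brown adipocyte markers (0.752) and of the cardiac muscle markers (0.659) and low in that of the smooth muscle markers (0.852), and nitrate 5 was low in that of the endothelial markers (0.886). Chance alone marks about 1 in 20 groups, which is 1.1 of the 22 groups of members tested, where 2 were marked, and 0.6 of the 12 groups of marker lists, where 4 were. Without control 3, Adipoq and Retn were called and Cfd was not, with a difference of -0.24 (limma's test, unadjusted P = 0.0520).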

How the results depend on the processing

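No gene among the 10 changed direction under any alternative run. Adipoq was called under every alternative, with differences from -0.54 to -0.42, and so was Retn at both probes, with -0.93 to -0.65 at the brighter one. The count of genes called lay between 3 and 6 under alternatives that kept all arrays or the arrays with shared numbers, and was 6 with slide as a block, also with the fold change limit, or 5 without Apln. With 1 array left out it lay between 2 and 5, with and without the limit: it was 2 without nitrate 1 or control 3, and 5 without nitrate 4, nitrate 5 or control 6. Without control 5 it was also 5, or 4 with the limit. The count of adipocyte markers called lower was 15 with slide as a block and lay between 8 and 17 with 1 array left out. Nampt crossed the threshold in 8 of 22 alternatives, and Adipor1 in 2, of which the fit without a detection filter gave unadjusted P = 0.0473 in limma's test. A replicate block, on numbers that both groups share, gave 3 calls. Arrays of the same number did not deviate together (correlation -0.14 to 0.18, 1 of 5 closest to its own number), so the numbers do not pair the mice. The median difference over all detected probes was 0.0144 in the main fit, 0.0147 under 75th percentile scaling and 0.0103 under normexp background correction. Normexp background correction moved Lep to -0.25 and Apln to -0.26. The causes of these shifts were not tested.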
